A study of Mus musculus with 12 samples.

Results

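The 10 genes described here form the core of the machinery that decides passage through the G1 phase of the cell cycle: the D cyclins Ccnd1, Ccnd2 and Ccnd3, their kinases Cdk4 and Cdk6, the Cip/Kip inhibitors Cdkn1b and Cdkn1c, the INK4 inhibitors Cdkn2c and Cdkn2d, and Rb1. They were chosen by gene symbol, 10 of the 55901 genes in the table, and they were proposed with results of these libraries in view, so their differences between groups are a description. Whether each was past the threshold used for all genes (called) is stated as part of that description and not as a test of it, and no p-value is printed for any of the 10. The cells were primary neurons from the cortex of newborn C57BL/6J mice, treated on day 1 of culture with arabinosylcytosine, which blocks DNA synthesis and so limits dividing glia, and used between day 8 and day 10. Control, Trauma and Tra_TGF each had 4 poly(A) RNA libraries. Trauma neurons were scratched with a needle and collected 24 h later, Tra_TGF neurons were scratched and given TGF-β1 (10 ng/mL), also for 24 h, and the third group carries only the label Control. No library came from uninjured neurons given TGF-β1, and the labels do not say whether the libraries of a group came from separate cultures or litters, so the spread between them may be technical. Scratching is a model of mechanical injury in a dish, with neither blood vessels nor infiltrating immune cells.

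D cyclins are made in response to growth signals and bind Cdk4 or Cdk6. The active complex phosphorylates the retinoblastoma protein, the product of Rb1, which then releases E2F transcription factors that switch on genes for DNA replication. INK4 proteins bind Cdk4 and Cdk6 directly, Cip/Kip proteins bind cyclin and kinase together, and mature neurons, which do not divide, keep several of these inhibitors at high levels. TGF-β1 is known in many dividing cell types as a signal that holds cells in G1.

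The libraries held 15052486 to 17381671 reads on genes. Along the axes of largest variation over the 15016 genes tested, Control 1 stood apart: its score on the first component was -12.1, against 25.3 to 30.0 for the other Control libraries, and its score on the second was 59.0, against -21.9 to 8.70 in the other 11 libraries. Differences from Control are therefore also given without it. Mitochondrial genes took 2.12 to 2.97% of the reads in Control, 2.17 to 2.30% in Trauma and 2.69 to 3.23% in Tra_TGF. All 8 neuronal markers were above 1 FPKM (fragments per kilobase of exon, scaled between libraries) in each group. Their summed level was 1346 to 1407 FPKM in Control, 1214 to 1286 in Trauma and 1144 to 1184 in Tra_TGF. Tubb3 made up most of that sum, with means of 951.2, 840.5 and 738.5 FPKM, so the sum mainly follows this gene. Of the 8, 1 was called higher and 2 lower in Trauma than in Control, 2 and 2 in Tra_TGF than in Trauma, and 3 and 4 in Tra_TGF than in Control. The median log2 difference over the 8 was -0.04, 0.05 and -0.05 in the same order. Over all genes tested, the shares called higher and lower were 3.50% and 2.32%, 4.64% and 7.63%, and 6.85% and 9.46% in these comparisons. The cultures also held astrocyte markers, summing to 137 to 149, 184 to 228 and 209 to 227 FPKM.

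3 of the genes that were called in at least 1 comparison have promoter windows in the RefSeq table for GRCm38.p6, and these are shown because the genes differed between the groups. Each window runs from 250 bases before to 50 bases after an annotated transcription start and is written 5′ to 3′ on the strand of the gene. Of promoter motifs, 5 were searched on both strands: AP-1 (TGANTCA), CRE (TGACGTCA), E2F (TTTCCCGC, TTTCGCGC, TTTGCCGC or TTTGGCGC), the E-box CACGTG and the GC box GGGCGG. Capitals mark the matches. Cdkn2c, which lies on the minus strand of chromosome 4 (chr4:109660876-109667189, ENSMUSG00000028551), has 2 such windows, and Ccnd3, on the plus strand of chromosome 17 (chr17:47505051-47599691, ENSMUSG00000034165), also has 2. Cdk4 lies on the plus strand of chromosome 10 (chr10:127063534-127067920, ENSMUSG00000006728).
Cdkn2c, upstream start, chr4:109666707-109667006: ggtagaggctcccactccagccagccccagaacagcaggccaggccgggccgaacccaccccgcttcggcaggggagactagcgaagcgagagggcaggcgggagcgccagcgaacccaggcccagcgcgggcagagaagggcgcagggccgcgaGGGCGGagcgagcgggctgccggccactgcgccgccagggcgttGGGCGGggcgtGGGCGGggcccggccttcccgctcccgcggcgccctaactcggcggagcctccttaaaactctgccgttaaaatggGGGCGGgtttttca
Cdkn2c, downstream start, chr4:109665323-109665622: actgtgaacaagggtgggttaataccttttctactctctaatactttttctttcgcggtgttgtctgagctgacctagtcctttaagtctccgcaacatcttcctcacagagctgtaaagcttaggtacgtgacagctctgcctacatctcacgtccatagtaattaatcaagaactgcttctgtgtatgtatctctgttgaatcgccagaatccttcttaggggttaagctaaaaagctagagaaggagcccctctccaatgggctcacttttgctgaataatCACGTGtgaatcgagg
Ccnd3, upstream start, chr17:47504801-47505100: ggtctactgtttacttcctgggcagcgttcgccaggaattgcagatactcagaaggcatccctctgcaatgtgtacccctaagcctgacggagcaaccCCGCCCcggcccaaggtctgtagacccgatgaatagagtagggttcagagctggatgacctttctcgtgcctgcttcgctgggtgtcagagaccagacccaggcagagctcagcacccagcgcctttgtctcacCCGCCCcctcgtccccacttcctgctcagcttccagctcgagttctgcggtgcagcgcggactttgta
Ccnd3, downstream start, chr17:47593217-47593516: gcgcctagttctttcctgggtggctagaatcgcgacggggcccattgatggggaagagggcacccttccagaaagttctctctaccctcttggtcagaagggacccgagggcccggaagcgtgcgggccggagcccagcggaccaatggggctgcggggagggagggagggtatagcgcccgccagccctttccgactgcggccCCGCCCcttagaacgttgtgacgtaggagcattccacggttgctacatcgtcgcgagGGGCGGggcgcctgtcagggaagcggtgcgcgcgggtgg
Cdk4, chr10:127063285-127063584: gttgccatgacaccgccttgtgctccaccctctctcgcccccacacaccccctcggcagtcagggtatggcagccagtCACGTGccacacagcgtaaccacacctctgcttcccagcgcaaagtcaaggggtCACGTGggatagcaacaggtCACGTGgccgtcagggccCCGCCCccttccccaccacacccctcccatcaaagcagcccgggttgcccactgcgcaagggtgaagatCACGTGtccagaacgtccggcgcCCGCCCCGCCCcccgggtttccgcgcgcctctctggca
The Cdk4 window held 4 E-boxes, whose first bases lay 172, 118, 98 and 11 bases before the start, and 3 GC boxes, of which 2 overlapped by 1 base. An E-box was present in 7.15% of the 32851 windows of that length in the table and a GC box in 35.66%. Cdkn2c had 4 GC boxes at its upstream start and 1 E-box at the downstream one, and each Ccnd3 window had 2 GC boxes. No AP-1, CRE or E2F word was found in these 5 windows. Those words were present in 7.81%, 1.79% and 2.26% of all windows. A match describes the letters of the window and is not evidence of binding.

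Ccnd1, which encodes cyclin D1, lies on the minus strand of chromosome 7 (GRCm38 chr7:144929931-144939925, ENSMUSG00000070348) with up to 5 exons. Its level was 3.68, 4.28, 4.49 and 5.40 FPKM in Control 1 to 4, and 7.44, 8.66, 7.40 and 8.88 FPKM in Trauma 1 to 4. In Tra_TGF 1 to 4 it was 4.94, 4.44, 5.07 and 4.86 FPKM. Every Trauma library was above every library of the other groups, while all 4 Tra_TGF libraries lay inside the Control range. The means were 4.46 ± 0.711, 8.09 ± 0.785 and 4.83 ± 0.275 FPKM (SD, n = 4), resting on 269 to 395, 579 to 744 and 326 to 386 reads. On the log2 scale the difference was 0.85 ± 0.10 (SE) for Trauma against Control, a 1.81-fold higher level, and -0.73 ± 0.10 for Tra_TGF against Trauma, or 0.603 of the Trauma level. Tra_TGF against Control gave 0.12, with a 95% interval from -0.11 to 0.35. Without Control 1 the difference from Control was 0.77 in Trauma and 0.04 in Tra_TGF.

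Ccnd2, encoding the D cyclin known from proliferating neural progenitors, had a higher FPKM than Ccnd1 in every library. It measured 11.1, 10.6, 9.09 and 9.87 FPKM in Control, 12.6, 12.7, 12.3 and 12.5 FPKM in Trauma, and 12.2, 12.4, 11.6 and 10.6 FPKM in Tra_TGF. Trauma lay above Control without overlap and Tra_TGF overlapped both. The log2 difference was 0.30 ± 0.07 for Trauma against Control, 0.35 without Control 1, and the call was lost without Control 4, Trauma 2 or Trauma 4, where it was 0.29 to 0.30. It was -0.10, with an interval from -0.24 to 0.04, for Tra_TGF against Trauma. For Tra_TGF against Control it was 0.20 (interval 0.06 to 0.34) and not called, but it was called with a filter at 1 FPKM (0.20), quantile normalization (0.23), the replicate number as a block (0.20) or voom on the recovered reads (0.20), and without Control 1 (0.24) or Tra_TGF 4 (0.25).

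Ccnd3, the D cyclin expressed across many differentiated tissues, measured 1.93, 2.15, 1.89 and 1.54 FPKM in Control, 2.92, 3.01, 2.54 and 2.95 FPKM in Trauma, and 2.82, 2.63, 2.41 and 2.26 FPKM in Tra_TGF. Both injured groups were above Control in every library, and they overlapped each other. The log2 difference from Control was 0.59 ± 0.11 in Trauma and 0.42 ± 0.11 in Tra_TGF, or 0.60 and 0.43 without Control 1. Between the injured groups it was -0.17, with an interval from -0.41 to 0.06. The Tra_TGF difference from Control was no longer called when Control 3, Control 4, Tra_TGF 1 or Tra_TGF 2 was left out, with values of 0.33 to 0.42. Nor was it called without a low-value filter (0.42), with quantile normalization (0.36), a fit of only these groups (0.42) or a correction for gene length (0.35). Summed over the 3 D cyclins, the level was 16.5 ± 0.707 FPKM in Control, 23.5 ± 1.04 in Trauma and 19.1 ± 0.979 in Tra_TGF. Ccnd1 made up 27.1 ± 4.42%, 34.4 ± 1.94% and 25.4 ± 2.08% of that sum. The size of that share depends on the gene lengths used, 4709 bases for Ccnd1, 9409 for Ccnd2 and 8775 for Ccnd3.

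In the fit over all genes, a gene was called at an adjusted p of at most 0.05. For Trauma against Control 4 of the 10 were called, all higher (Ccnd1, Ccnd2, Ccnd3 and Cdkn2c), where 5.82% of the 15016 genes tested were called (3.50% higher and 2.32% lower). For Tra_TGF against Trauma 3 were called, all lower (Ccnd1, Cdk4 and Cdkn2c), where 12.3% of all genes were called (4.64% higher and 7.63% lower). For Tra_TGF against Control 2 were called, both higher (Ccnd3 and Cdkn2c), where 16.3% of all genes were called (6.85% higher and 9.46% lower). The groups did not overlap for 4, 4 and 3 of the 10 in these comparisons, and for 12.8%, 22.3% and 18.0% of all genes. Nothing is read from these counts, because the genes were proposed with the same contrasts in view. The median log2 difference over the 10 was 0.08, -0.15 and 0.05 in these comparisons, beside -0.0025, 0.0052 and 0.0031 over all genes tested. The 3 comparisons share libraries pairwise, so they are not independent of each other.

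**Figure D1:**
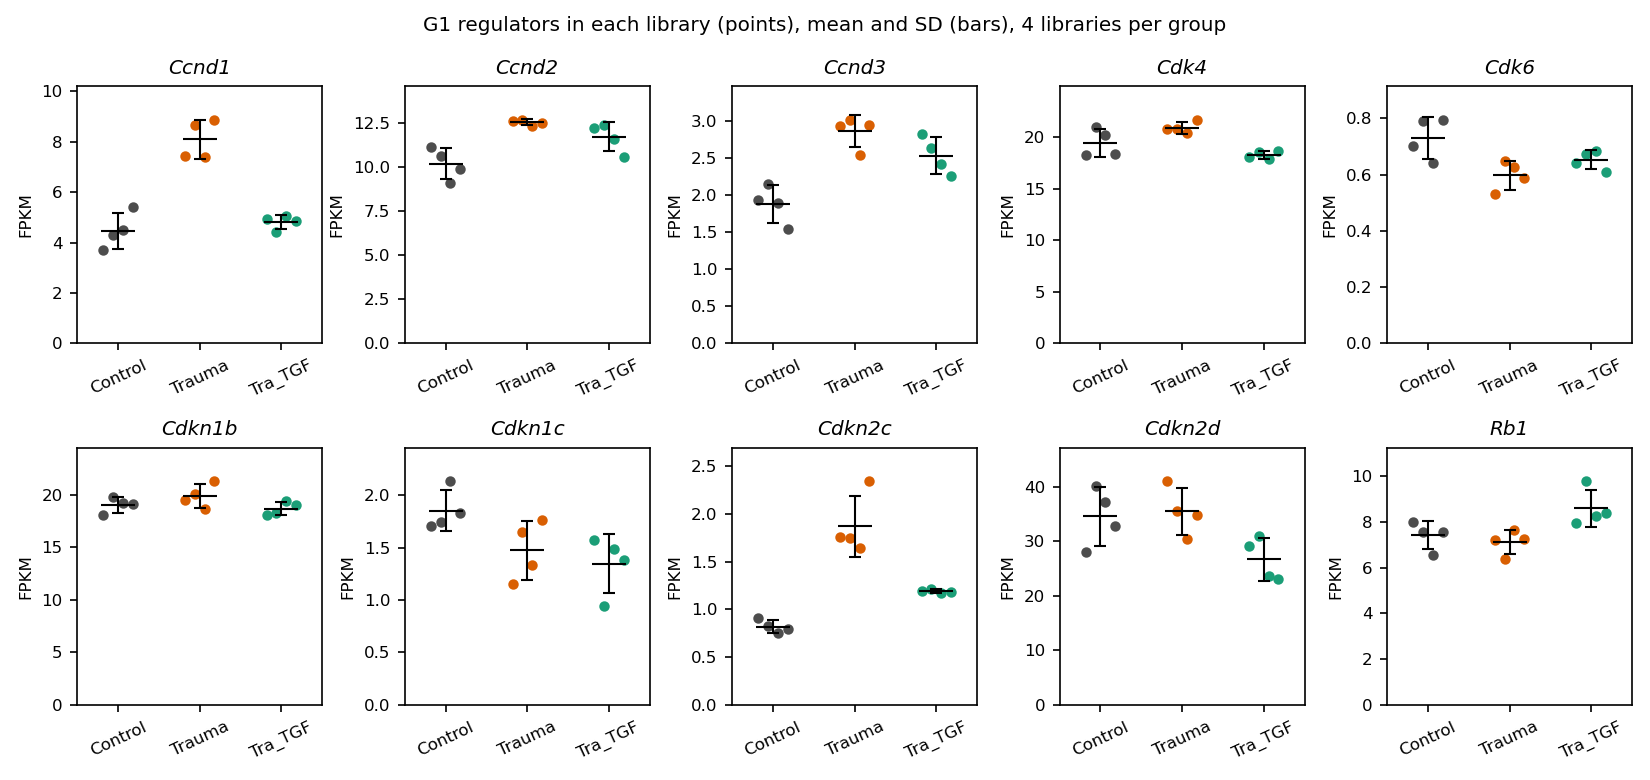
FPKM of the 10 genes in each library (points, 4 per group), with the mean and SD as black bars; each panel has its own vertical axis starting at 0. Ccnd1 is above 7 FPKM only in the Trauma libraries, and Cdkn2c separates the 3 groups, with Tra_TGF (1.17 to 1.22 FPKM) between Control and Trauma.

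**Figure D2:**
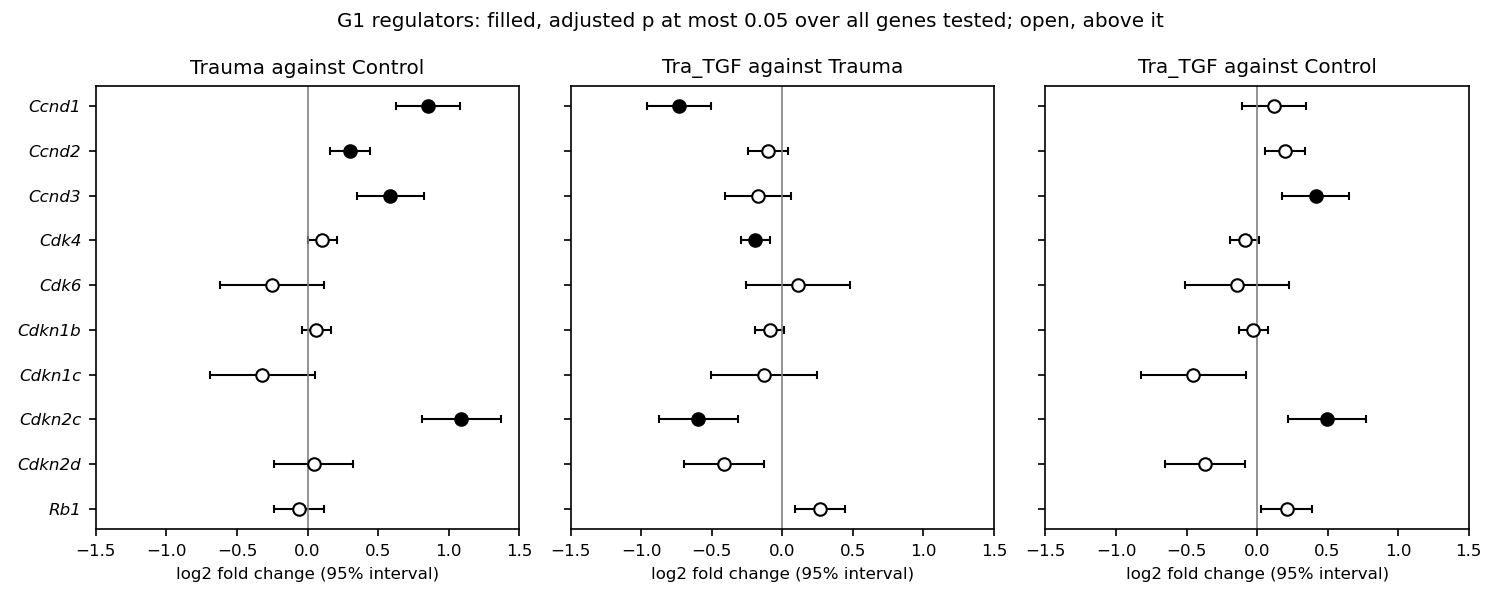
Log2 fold changes of the 10 genes in the 3 comparisons, with 95% intervals from the fit over all genes; filled points passed the threshold and open points did not. Ccnd1 is at 0.85, -0.73 and 0.12 from left to right, whereas Ccnd3 is at 0.59, -0.17 and 0.42.

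Of the kinases, Cdk4 measured 18.3, 21.0, 20.2 and 18.4 FPKM in Control, 20.8, 20.7, 20.4 and 21.7 FPKM in Trauma, and 18.0, 18.6, 17.9 and 18.7 FPKM in Tra_TGF. Every Tra_TGF library was below every Trauma library, and the Control range overlapped both. The log2 difference between Tra_TGF and Trauma was -0.19 ± 0.05. It was no longer called with a correction for gene length (-0.15) or GC content (-0.12), nor without Trauma 1, 2 or 4 or Tra_TGF 1, 2 or 4 (-0.20 to -0.17). From Control, Cdk4 differed by 0.10 in Trauma and -0.09 in Tra_TGF, or 0.08 and -0.12 without Control 1. Cdk6, the other D cyclin kinase, had the lowest mean FPKM of the 10 in each group. It was at 0.640 to 0.796 FPKM in Control, and its groups overlapped (0.532 to 0.649 in Trauma, 0.611 to 0.685 in Tra_TGF). Its differences of -0.25, 0.11 and -0.14 all had intervals spanning 0, and those from Control were -0.27 and -0.16 without Control 1.

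Of the Cip/Kip inhibitors, Cdkn1b, a gene that helps hold neurons out of the cycle, was among the highest of the 10 in FPKM. It overlapped in all groups, at 18.0 to 19.8 FPKM in Control, 18.6 to 21.3 in Trauma and 18.1 to 19.4 in Tra_TGF. Its log2 difference for Trauma against Control was 0.06 (interval -0.04 to 0.17), and that for Tra_TGF against Control -0.03 (-0.13 to 0.08). Without Control 1 they were 0.04 and -0.05. Cdkn1c, an imprinted gene expressed from the maternal allele, measured 1.71, 1.74, 2.13 and 1.83 FPKM in Control, 1.16, 1.65, 1.33 and 1.76 FPKM in Trauma, and 1.58, 0.943, 1.49 and 1.38 FPKM in Tra_TGF. Tra_TGF lay below Control without overlap, by -0.45 ± 0.17 on the log2 scale, but was not called. Without Control 1 it was -0.49, and Trauma against Control was -0.36, beside -0.32 with all libraries.

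The INK4 inhibitors differed from each other in level and in pattern. Cdkn2c measured 0.912, 0.823, 0.751 and 0.791 FPKM in Control, 1.76, 1.74, 1.64 and 2.34 FPKM in Trauma, and 1.20, 1.22, 1.17 and 1.19 FPKM in Tra_TGF. No groups overlapped, with Trauma highest and Control lowest. The log2 difference was 1.09 ± 0.13 for Trauma against Control, a 2.13-fold higher level, and 1.14 without Control 1. For Tra_TGF it was -0.60 ± 0.13 against Trauma and 0.50 ± 0.13 against Control, the latter 0.54 without Control 1. These values rest on 32 to 38, 78 to 112 and 49 to 51 reads per library. With a pseudocount of 1 in place of 0.1, which weighs on low genes, the differences were 0.65, -0.38 and 0.27, and that of Ccnd1 between Trauma and Control, at 0.74, was then the larger. That from Trauma was no longer called with a GC correction (-0.44), and that from Control was not called without Control 3 (0.46), Tra_TGF 2 (0.49) or Tra_TGF 4 (0.50). Nor was it called with voom on the recovered reads (0.54), quantile normalization (0.40) or a fit of only these groups (0.50).

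Cdkn2d, the INK4 gene typical of postmitotic neurons, had the highest mean FPKM of the 10 in each group. It measured 27.9, 40.2, 37.3 and 32.8 FPKM in Control, 41.0, 35.5, 30.5 and 34.8 FPKM in Trauma, and 29.0, 31.0, 23.6 and 23.0 FPKM in Tra_TGF. The groups overlapped, though the Tra_TGF mean was the lowest, at 26.7 ± 3.96 FPKM against 35.4 ± 4.33 in Trauma and 34.5 ± 5.34 in Control. The log2 difference of Tra_TGF was -0.41 ± 0.13 from Trauma and -0.37 ± 0.13 from Control, and neither was called. Without Control 1 both were called, at -0.41 and -0.47, and the first was also called without Trauma 3, at -0.48. That from Trauma was called as well with a filter at 1 FPKM, a fit of only these groups or voom on the recovered reads (-0.41 in each). That from Control was called with voom (-0.38). For Trauma against Control the value was 0.04 with all libraries and -0.05 without Control 1.

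Rb1, which encodes the main substrate of the D cyclin kinases, measured 8.01, 7.55, 6.56 and 7.56 FPKM in Control, 7.22, 6.37, 7.63 and 7.24 FPKM in Trauma, and 7.94, 9.79, 8.26 and 8.39 FPKM in Tra_TGF. Each Tra_TGF library was above each Trauma library, and Control overlapped both groups. The log2 difference between Tra_TGF and Trauma was 0.27 ± 0.08 and was not called. Without Control 1 or Control 3 it was called, at 0.27 in both cases. Leaving out a library refits the scaling, the filter, the shared spread and the adjustment over all genes. The difference was also called with a filter at 1 FPKM (0.27), quantile normalization (0.28), a fit of only these groups (0.27) or voom on the recovered reads (0.27). Against Control the Tra_TGF difference was 0.21 (interval 0.03 to 0.39). With a GC correction these values were 0.14 and 0.08. Without Control 1 the differences from Control were -0.02 in Trauma, beside -0.06 with all libraries, and 0.25 in Tra_TGF.

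FPKM divides by the gene length given with the data, such as 8775 bases for Ccnd3, with 21 annotated transcripts, and 13989 for Cdk6. That length need not be that of the transcripts expressed, so levels of different genes can be compared only roughly. Ordered by FPKM, Control ran Cdkn2d, Cdk4, Cdkn1b, Ccnd2, Rb1, Ccnd1, Ccnd3, Cdkn1c, Cdkn2c and Cdk6. The ranges of Cdk4 and Cdkn1b, of Ccnd3 and Cdkn1c, and of Cdkn2c and Cdk6 overlapped, so the order within those pairs is not resolved even in FPKM. In Trauma, Ccnd1 came above Rb1 and Cdkn2c above Cdkn1c, in both cases with overlapping ranges. In Tra_TGF, Rb1 was again above Ccnd1, this time without overlap.

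The reads of Ccnd1, Ccnd3, Cdk4 and Rb1 could in part come from genes that overlap them on the opposite strand, because the strand setting of the counting is not given in the sources used here. None of LTO1, which overlaps Ccnd1, Bysl at Ccnd3, Tspan31 at Cdk4, and Rcbtb2 and Lpar6 at Rb1 was called in any comparison. LTO1 was at 1.95, 1.90 and 1.69 FPKM in Control, Trauma and Tra_TGF.

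Genes whose profile was most like that of Ccnd1 were ranked by the root mean square difference, over the 12 libraries, of the log2 differences from the Control mean. Among 12788 genes the nearest were Apln, which encodes the peptide ligand apelin (0.13), Lgals3, encoding the lectin galectin-3 (0.15), Csrp1, a LIM-domain protein gene (0.17), Metrn, encoding the secreted protein meteorin (0.17), and Prdx6, a peroxiredoxin gene (0.18). Their Trauma differences from Control ran from 0.62 for Metrn to 0.83 for Apln, and their Tra_TGF differences from Trauma from -0.42 for Metrn to -0.72 for Apln. Cdkn2c was at rank 131, Ccnd3 at 143 and Ccnd2 at 413. The genes were picked for this likeness, so it is a description.

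**Figure D3:**
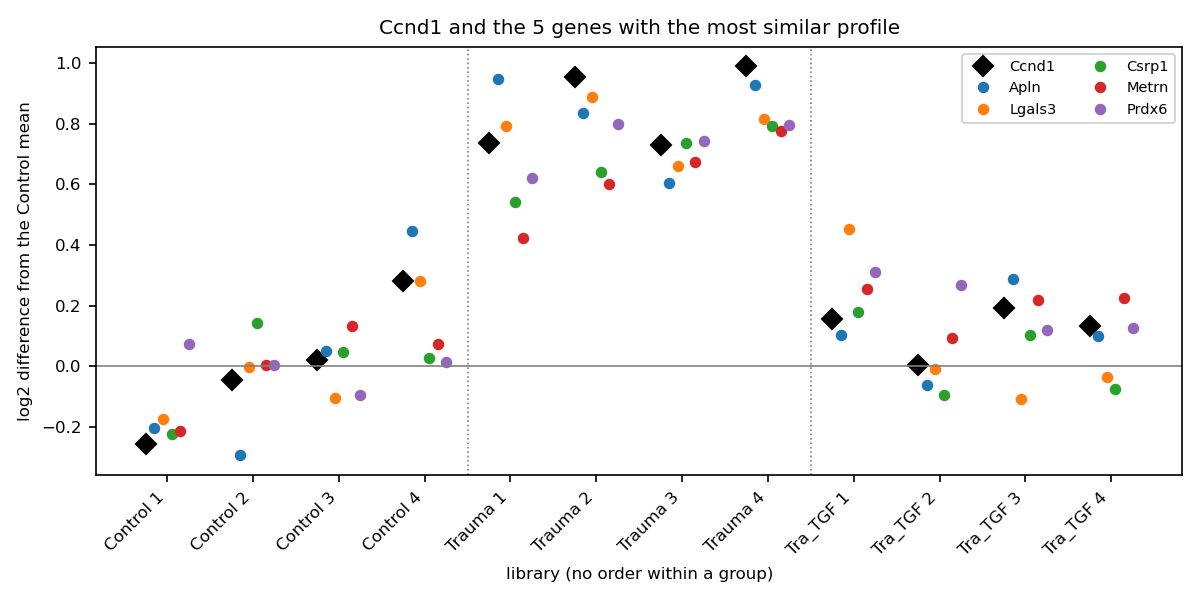
Log2 difference from the Control mean in each of the 12 libraries, for Ccnd1 (black diamonds) and the 5 genes nearest to it (coloured points); dotted lines part the groups, and libraries have no order within a group. Every Trauma point of the 6 genes lies above every Control point, except that Apln in Control 4 (0.45) is above Metrn in Trauma 1 (0.42).

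Beyond the 10, 35 other genes of the G1 to S transition were listed, of which 28 were tested. This list was also chosen with earlier results of these data known, and the genes named from it are those past the threshold. Its counts and adjusted p-values, from the fit over all genes, are therefore a description and not a test of the list. For Trauma against Control 3 were higher and 0 lower by limma with Benjamini-Hochberg adjustment, where 3.50% and 2.32% of all genes tested were. Ccna2, encoding the S phase partner of Cdk2, rose by 0.96 ± 0.17 on the log2 scale (adjusted p = 0.00583), from 0.413 to 0.662 FPKM in Control to 1.05 to 1.17 in Trauma, on 29 to 42 and 76 to 85 reads, and by 0.47 with a pseudocount of 1. Cdkn1a, the Cip/Kip inhibitor gene induced by p53, rose by 0.58 ± 0.10 (adjusted p = 0.00458). Fbxw7, whose product marks cyclin E for degradation, rose by 0.15 ± 0.04 (adjusted p = 0.0350). That last call was lost without any 1 of 6 libraries (0.13 to 0.16), namely Control 2, 3 and 4 and Trauma 2, 3 and 4. It was also lost under 7 of 15 alternatives in processing, a GC correction (0.13) among them. Without Control 1 the values were 1.00 for Ccna2, 0.55 for Cdkn1a and 0.16 for Fbxw7. With a GC correction the split was 2 higher and 3 lower. Among those 3, E2f1 fell by 0.22 (adjusted p = 0.0137 by limma) and Fbxo31 fell by 0.12 (0.0464). E2f1 was also called lower with a correction for gene length (-0.22, adjusted p = 0.0296 by limma).

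For Tra_TGF against Trauma 3 of the 28 were higher and 2 lower, all by small amounts, where 4.64% and 7.63% of all genes tested were called. Ccnh, a subunit of the kinase that activates cyclin-dependent kinases, rose by 0.26 (adjusted p = 0.0277 by limma). The ubiquitin ligase scaffold gene Cul1 rose by 0.11 (0.0339) and Gsk3b, whose kinase phosphorylates cyclin D1 for export and degradation, rose by 0.15 (0.0367). E2f1, the E2F activator, fell by 0.24 (0.0243) and Cops5, a signalosome subunit gene, fell by 0.21 (0.0396). None of these 5 calls held without Trauma 2, Tra_TGF 2 or Tra_TGF 4, with values of 0.24 to 0.25 for Ccnh, 0.10 to 0.12 for Cul1, 0.13 to 0.16 for Gsk3b, -0.23 to -0.20 for E2f1 and -0.22 to -0.21 for Cops5. Control 3, Control 4 and each of the other Trauma and Tra_TGF libraries ended 1 to 4 of the calls, and with a GC correction Ccnh (0.09), Cul1 (0.03), Gsk3b (0.09) and E2f1 (-0.08) were not called. The split was then 0 higher and 3 lower, since Cops5 stayed called and Fbxw7 (-0.16, adjusted p = 0.0324 by limma) and Rbx1 (-0.20, 0.0264) were called lower. Of 15 alternatives in processing, 3 ended the call of Ccnh, 7 that of Cul1, 6 that of Gsk3b, 3 that of E2f1 and 7 that of Cops5.

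For Tra_TGF against Control 2 of the 28 were higher and 4 lower, where 6.85% and 9.46% of all genes tested were called. Ccna2 (0.78, adjusted p = 0.00970 by limma) and Cdkn1a (0.37, 0.0236) were higher. E2f1 (-0.41, 0.000987), Fbxo31 (-0.24, 0.0157), Rbx1 (-0.14, 0.0376) and Ccne1, the cyclin E gene that acts after cyclin D (-0.32, 0.0487), were lower. E2f1 stood at 7.77 to 8.96 FPKM in Control, 7.25 to 7.75 in Trauma and 5.86 to 6.68 in Tra_TGF, with no overlap between groups. The calls were lost for Ccne1 without any 1 of the 10 libraries other than Trauma 1 and Trauma 3 (-0.36 to -0.28), and for Rbx1 without Control 2, 3 or 4 or Tra_TGF 1, 2 or 4 (-0.16 to -0.12). They were also lost for Cdkn1a without Control 4 or Tra_TGF 1 (0.30 in both), and for Fbxo31 without Control 3 (-0.21) or with a GC correction (-0.11). Of 15 alternatives in processing, 9 ended the call of Ccne1, 4 that of Rbx1, 4 that of Fbxo31 and 2 that of Cdkn1a. For Ccna2 1 of 14 did, and E2f1 stayed called in all 15. Without Control 1 the values were 0.82 for Ccna2, 0.34 for Cdkn1a, -0.45 for E2f1, -0.29 for Fbxo31, -0.17 for Rbx1 and -0.31 for Ccne1. The median log2 difference over the 28 was 0.01, 0.01 and 0.05 in the 3 comparisons. Cdk2, Cdkn3, Rbl1, E2f2, E2f7, E2f8 and Skp2 were below the level tested, and Skp2 was listed at 0 in all 12 libraries.

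**Figure D4:**
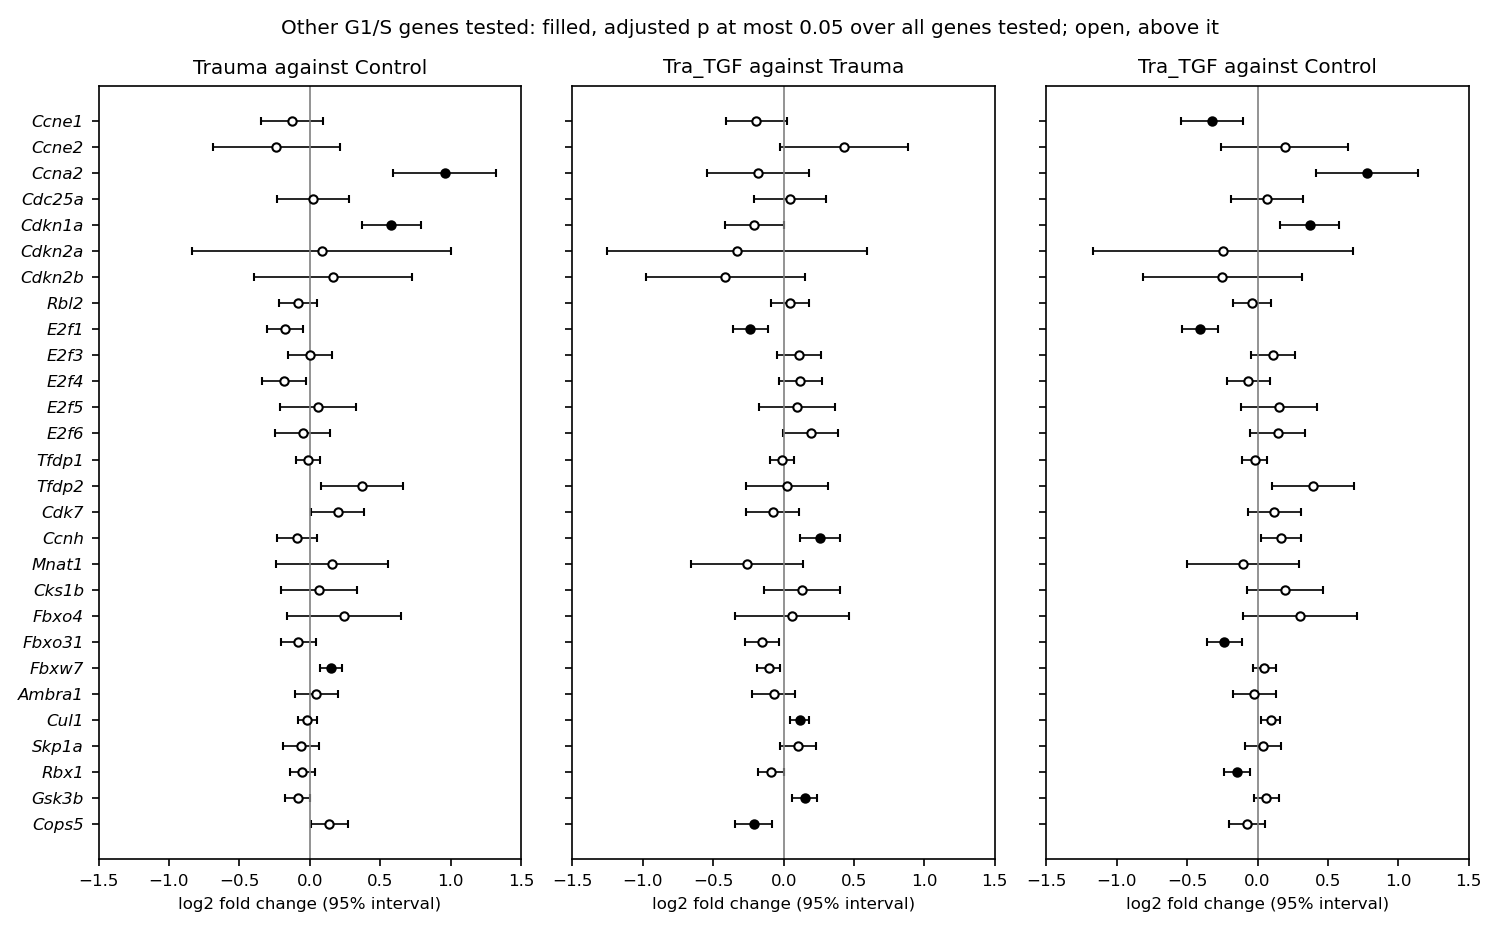
Log2 fold changes with 95% intervals for the 28 other G1/S genes tested, in the 3 comparisons; filled points passed the threshold. Most points lie near 0, with Ccna2 farthest to the right in both comparisons against Control (0.96 and 0.78).

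Genes of later cycle phases and markers of other cells also differed between the groups. These lists were chosen with earlier results of these data known, so the counts are a description. Of 14 tested genes of DNA replication and mitosis, 11 were higher and 0 lower in Trauma than in Control (median log2 difference 0.71), and 9 were higher and 0 lower in Tra_TGF than in Control (0.54). Over all genes tested, 3.50% were called higher and 2.32% lower in the first comparison, and 6.85% and 9.46% in the second. Between Tra_TGF and Trauma 0 of the 14 were higher and 1 lower (-0.16), where 4.64% and 7.63% of all genes were called. In that comparison Ccnd1 differed by -0.73. The summed level of the replication genes was 33.4 to 34.8 FPKM in Control, 43.0 to 50.8 in Trauma and 39.5 to 43.4 in Tra_TGF, and that of the mitosis genes 4.22 to 5.65, 7.68 to 11.4 and 8.54 to 9.74.

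Of 8 astrocyte markers, all tested, 7 were higher in Trauma than in Control (median log2 difference 0.49) and 4 in Tra_TGF than in Control (0.25). Over all genes tested, 3.50% and 6.85% were called higher in these comparisons. Between Tra_TGF and Trauma 1 astrocyte marker was higher and 2 were lower (-0.13), beside 4.64% and 7.63% of all genes. For the oligodendrocyte lineage 4 of 7 markers were tested, and 2, 0 and 3 were higher in the same order of comparisons (Trauma against Control, Tra_TGF against Trauma, Tra_TGF against Control), with 0 lower. The summed level of these markers was 40.6 to 45.7, 53.0 to 60.7 and 53.4 to 59.3 FPKM in Control, Trauma and Tra_TGF. Olig1 was the largest part of that sum, with means of 24.47, 33.95 and 34.02 FPKM. Olig2 went the other way, with means of 7.83, 7.13 and 6.87 FPKM. Microglial markers, 3 of 6 tested, summed to 8.44 to 11.8, 14.1 to 15.1 and 10.6 to 14.3 FPKM, and 1 was higher in Trauma than in Control. Markers of fibroblasts and mural cells summed to 2.39 to 3.04, 2.80 to 4.42 and 3.60 to 4.32 FPKM with 0 of 3 tested called by limma, and the 4 endothelial markers stayed below 0.4 FPKM in sum. No marker of any list was at 0 reads throughout a group. The part of these cells in the differences of Ccnd1, Ccnd2, Ccnd3 and Cdkn2c was not tested. In bulk libraries a change in the number of cells of a type and a change in RNA per cell cannot be told apart.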

How the data were processed

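Per the paper's methods and the labels, the authors sequenced paired-end poly(A) libraries, aligned reads to mm10 with HISAT2 2.0.5, assembled with StringTie, counted reads per gene with featureCounts, and deposited FPKM calculated from gene length and mapped reads. The deposited table also gives gene length in base pairs. Groups were taken from the sample titles. FPKM multiplied by length was a whole number of steps for 100% of values (within 0.01 read), which gave the reads per gene.

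Libraries were rescaled by median-of-ratios factors of 0.999 to 1.01, and the rescaled FPKM are the values given. Taken over all genes detected in every library, that factor was 1.0062 in each library. The deposited FPKM thus appear to have been scaled in this way already, and using them as deposited, among the alternatives, changes the scaling little. After adding 0.1, log2 values of the 15016 of 55901 genes averaging 0.5 FPKM or more were fitted with limma 3.58.1 in R 4.3.3, all 12 libraries together, with a trended variance, no block, and Benjamini-Hochberg adjustment over all genes tested. A fold change on this scale understates that of low genes. Fitting was tested on simulated data. Genes named are the 10 regulators, the other G1/S genes past the threshold in any comparison, and the 5 of at least 1 FPKM most like Ccnd1. The markers Tubb3, Olig1 and Olig2 were named after their values were seen. The members and lists were chosen with earlier results of these data known. Promoter windows (GRCm38.p6, RefSeq) were matched by symbol for 6 of the 10 genes. GC content came from GENCODE M21 transcripts. Alternatives were other pseudocounts, filters, scalings, variance models, corrections for length and GC, the replicate number as a block, voom on the recovered reads, and leaving out each library. The authors' count test was not run. Python 3.11.15 was used, with numpy 2.4.6, pandas 2.3.3 and, for plots, matplotlib 3.10.9.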

Additional observations from a re-analysis of the deposited data

Results flagged for a closer look

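In 63 groups of 4 libraries (the 10 regulators and the named G1/S genes), the gap of the highest or lowest library to its nearest neighbour, as a share of the group's range, was compared with Dixon's 95% critical value, which chance exceeds in about 1 in 20 groups. A library stood apart in 3 of them. Cdkn2c was at 2.34 FPKM in Trauma 4 against 1.64 to 1.76 in the other Trauma libraries. Cul1 was at 31.2 FPKM in Control 1 against 30.2 to 30.4 in the other Control libraries, and at 28.9 FPKM in Trauma 4 against 30.5 to 30.6 in the others of Trauma.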

How the results depend on the processing

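Ccnd1, Ccnd3 and Cdkn2c were called for Trauma against Control, and Ccnd1 for Tra_TGF against Trauma, under all 15 alternatives and without each of the 12 libraries. Without a low-value filter, 562, 990 and 1629 genes were called for Trauma against Control, Tra_TGF against Trauma and Tra_TGF against Control (874, 1842 and 2449 in the reported fit), with 1 other G1/S gene in the second and 1 of the 10 regulators in the third. Over the 15 alternatives, 526 to 1345, 740 to 2557 and 1462 to 2896 of all genes were called in these comparisons. The number of regulators called moves with that total, so nothing is read from it. With a filter at 1 FPKM, or voom, 5 regulators were called in the second. Fits of only the groups compared called 526 genes in the first, 5 regulators in the second, and 1462 genes, 0 regulators and 2 other G1/S genes in the third. Without a variance trend 2 other G1/S genes were called in the second. Quantile normalization or a length correction left 1 regulator in the third. GC correction called 5 other G1/S genes (2 higher, 3 lower) in the first, and 818 genes, 1 regulator and 3 other G1/S genes in the second. Same-numbered libraries correlated at -0.0088 to 0.076 in 12 pairs, and 4 of the 12 pairs had their highest correlation at the same number. These values show no clear pairing by number, but they cannot tell whether same-numbered libraries shared a culture or litter. The replicate block called 781, 1526 and 2222 genes, 4, 3 and 3 regulators, and 2, 3 and 5 other G1/S genes. The block with length correction called 876 genes, 1 regulator and 1 other G1/S gene in the second. The block with GC correction called 1345 genes and 6 other G1/S genes in the first, and 740 genes, 1 regulator and 3 other G1/S genes in the second. Leaving out 1 library gave 464 to 837, 649 to 2552 and 1426 to 3425 genes, 3 to 4, 2 to 5 and 0 to 4 regulators, and 2 to 3, 0 to 6 and 3 to 7 other G1/S genes. The share of calls that were higher was 60.2%, 37.8% and 42.0%, against 62.4%, 54.8% and 55.3% after quantile normalization, 47.5%, 31.6% and 30.9% after length correction and 39.1%, 32.3% and 33.4% after GC correction. Signs turned only for differences that were not called: for Trauma against Control, Cul1 with quantile normalization (0.0016) or without Trauma 4 (-0.026 to 0.0011 over the libraries left out), and Cdkn2d with length (-0.0079) or GC correction (-0.018), each with and without the block, or without Control 1 (-0.053) or Trauma 1 (-0.030; up to 0.12 over the libraries left out); for Tra_TGF against Trauma, Cdkn1c (0.047; -0.23 to 0.019 over the libraries left out, above 0 without Tra_TGF 2) and Fbxo31 (0.015) with GC correction; for Tra_TGF against Control, Cdkn1b with quantile normalization (0.022), Fbxw7 and Gsk3b with length (-0.0044, -0.016) or GC correction (-0.029, -0.018), and Cul1 with GC correction (-0.0054). The cause of these shifts was not tested. Cdkn1c, Cdkn2c and Ccna2 rest on at most 112 reads per library, which limits their precision.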
